A study of Mus musculus with 6 samples.

Results

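The insulin-like growth factor (IGF) system was examined in lung tumors that grew with or without interstitial pneumonia (IP). A list of 10 genes, chosen by symbol, held the ligands Igf1 and Igf2, the receptors Igf1r and Igf2r and the binding proteins Igfbp2 to Igfbp7. Rows were found for 9 of the 10 among the 31130 genes counted, and Igf2 was not analysed here. All 9 had enough unique molecular identifiers (UMIs) for a test, so no member with a row was lost to the filter on low counts.

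The tumors came from 6 WT female C57BL/6 mice, 6 to 8 weeks old, 3 of the lung cancer alone (LC) model and 3 of the lung cancer with IP (IP + LC) model. In all 6, LLC cells (Lewis lung carcinoma, a line from a mouse tumor) that express green fluorescent protein had been placed in the left lung on day 14. The IP + LC mice had received bleomycin at 2.0 mg/kg body weight by oropharyngeal aspiration on day 0, a drug that injures the lung and leaves fibrosis, and tumor tissue of both models was taken on day 21. The comparison therefore asked which mRNAs of the tumor tissue differed when the cancer grew in a bleomycin-injured lung, and lungs without cancer cells were not analysed here. The labels call the material lung cancer cells, but it was whole tumor tissue, and the summed level of 6 type 2 alveolar markers, genes of normal lung, was 34446 to 43018 CPM (UMIs scaled to a common library size) in the LC tumors and 6039 to 11142 CPM in the IP + LC tumors.

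IGF1 and IGF2 are small secreted growth factors related to insulin. They act through the tyrosine kinase receptor IGF1R, which drives growth and survival, while IGF2R, the mannose 6-phosphate receptor, takes up IGF2 and carries it to lysosomes. IGF binding proteins hold the ligands in blood and tissue, prolong their life and limit or deliver their action, and macrophages, fibroblasts and vascular cells are known sources of these proteins in the lung.

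The libraries held 592733 UMIs in LC replicate 1 and 1336919 to 1631066 UMIs in the other 5, and each UMI stands for 1 captured mRNA molecule. LC replicate 1 stood apart from the other LC tumors. Across the 11240 tested genes, which are not independent replicates, its Pearson's r was 0.84 with LC replicate 2 and 0.80 with LC replicate 3, against 0.96 between these 2 and 0.97 among the IP + LC tumors. With IP + LC replicates 1, 2 and 3 its r was 0.81, 0.80 and 0.82, near its values with its own group. LC replicate 1 was relatively poor in long transcripts. The median of its log2 level minus that of the other LC tumors fell from 0.32 for genes with a longest transcript of up to 2000 nucleotides to -0.93 for genes over 8000 nucleotides. Where leaving out this tumor changed the call of a member or of a pathway gene named here, the value without it is given as well.

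In the quasi-likelihood test of edgeR, with p-values adjusted after Benjamini and Hochberg over all 11240 genes, 1 of the 9 members was higher and 3 were lower in the IP + LC group at an adjusted p-value below 0.1. Over all tested genes, 16.8% were higher and 19.6% were lower, 36.4% in all, so the number of members called was near the background and is not by itself a result about the IGF genes. The ligand Igf1 was higher, by 1.68-fold. The binding proteins Igfbp6, Igfbp3 and Igfbp7 were lower, by 6.80-, 4.28- and 1.94-fold. Igf1r, Igf2r, Igfbp2, Igfbp4 and Igfbp5 did not pass the test. The median log2 fold change (log2FC) of the 9 members was -0.10, against 0.02 for all tested genes.

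**Figure D1:**
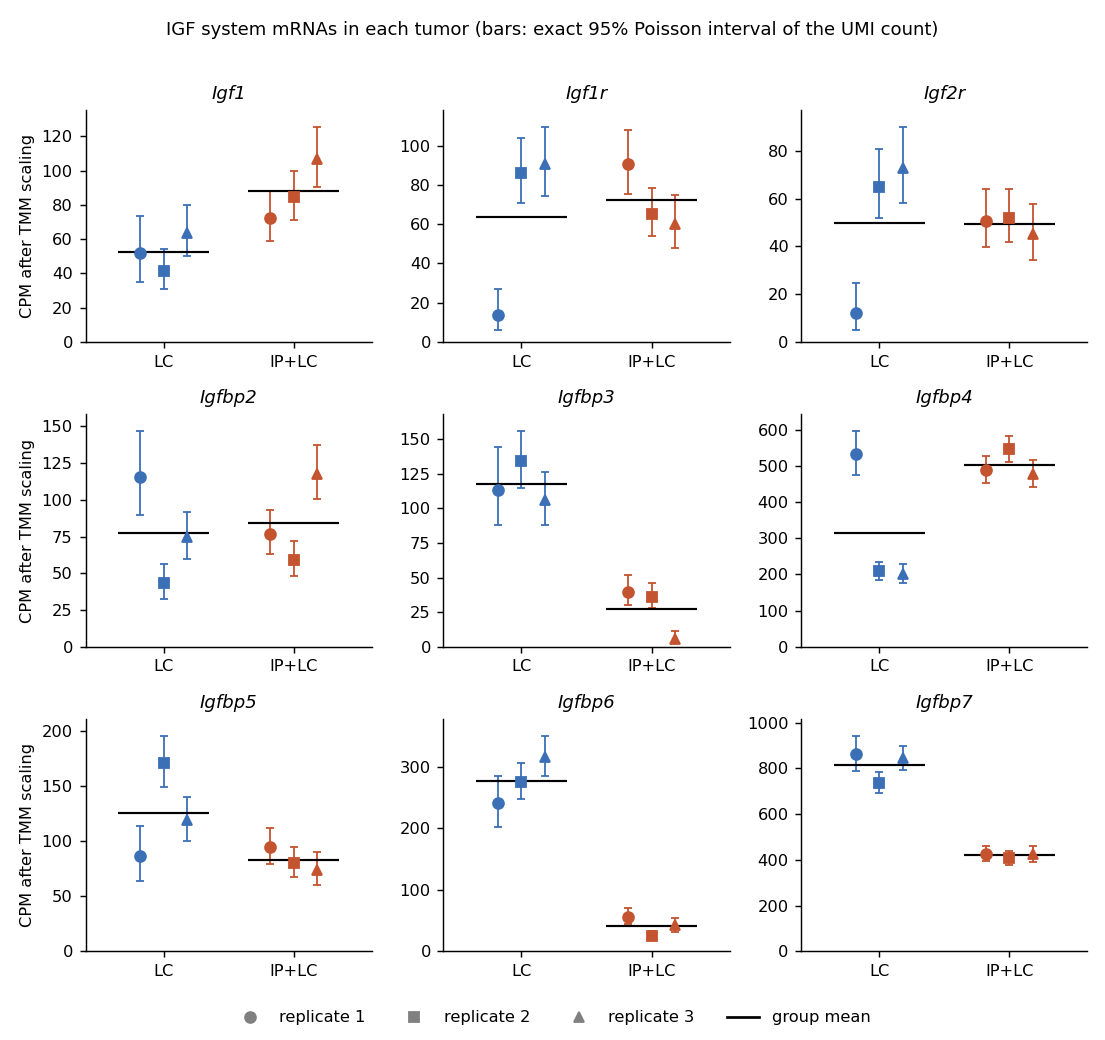
Level of each of the 9 IGF genes in CPM after TMM scaling (vertical axes from 0, a scale for each gene) in the LC (blue) and IP + LC (orange) tumors, with 1 marker shape per replicate, the exact 95% Poisson interval of the UMI count as error bars and the group mean as a black line. The groups do not overlap for Igf1, Igfbp3, Igfbp6 and Igfbp7, and LC replicate 1 lies far from the other LC tumors for Igf1r, Igf2r and Igfbp4.

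The 3 binding proteins that were lower lie on different chromosomes. Their promoters are shown because these members moved in the same direction, as the 250 bases before the RefSeq transcription start on GRCm38.p6, written 5′ to 3′ along the gene. They are chr11:7213924-7214173 on the minus strand for Igfbp3, chr15:102143936-102144185 on the plus strand for Igfbp6 and chr5:77408046-77408295 on the minus strand for Igfbp7. Capitals mark ACGTG, the core of the hypoxia response element, searched on both strands because the study is about hypoxia-inducible factor 1.
Igfbp3: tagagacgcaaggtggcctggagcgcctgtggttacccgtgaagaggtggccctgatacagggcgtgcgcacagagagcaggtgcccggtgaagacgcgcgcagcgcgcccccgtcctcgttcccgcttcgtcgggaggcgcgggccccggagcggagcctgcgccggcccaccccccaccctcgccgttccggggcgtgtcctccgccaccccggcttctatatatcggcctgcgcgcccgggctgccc
Igfbp6: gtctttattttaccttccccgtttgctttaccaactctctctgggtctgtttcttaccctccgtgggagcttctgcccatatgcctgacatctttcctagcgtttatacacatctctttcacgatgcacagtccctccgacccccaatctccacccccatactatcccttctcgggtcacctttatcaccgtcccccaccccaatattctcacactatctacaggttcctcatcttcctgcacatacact
Igfbp7: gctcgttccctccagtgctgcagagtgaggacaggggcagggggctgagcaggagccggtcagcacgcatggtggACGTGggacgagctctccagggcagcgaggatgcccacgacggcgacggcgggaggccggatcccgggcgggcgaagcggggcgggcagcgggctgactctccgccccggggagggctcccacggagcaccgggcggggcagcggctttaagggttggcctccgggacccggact
ACGTG was found once in the Igfbp7 window and not in the windows of Igfbp3 and Igfbp6. It was found in 16.6% of all promoter windows of 250 bases. The base composition differed among the 3 windows, with 73.2% G and C for Igfbp3, 49.6% for Igfbp6 and 74.0% for Igfbp7. GGGCGG, the core of Sp1 sites, had 4 matches in the Igfbp7 window and 0 in the other 2 (32.7% of all windows), and CCAAT had 2 in the Igfbp6 window and 0 in the other 2 (33.9% of all windows). Of the other members, Igf2r had 4 matches of ACGTG and the first of 2 windows of Igfbp2 had 2. Each palindrome CACGTG counts as a match on both strands, and all 6 of these matches belonged to such palindromes. TATAAA, TTCNNNGAA and TGACTCA were also searched, and of these the 3 printed windows held only 1 match of TATAAA, in Igfbp6 (12.4% of all windows). These matches are descriptions of the letters and not of bound sites.

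Igf1 (ENSMUSG00000020053) encodes the ligand of IGF1R and lies on chromosome 10 from 87858265 to 87937042 of the build GRCm38, to which all coordinates refer. It had 30, 53 and 75 UMIs in LC replicates 1, 2 and 3, or 51.7, 41.5 and 63.6 CPM. In the IP + LC tumors it had 100, 145 and 147 UMIs, or 72.5, 84.6 and 107 CPM. All 3 IP + LC tumors lay above all 3 LC tumors, a pattern that 21.6% of all tested genes showed. The means were 52.2 ± 11.0 and 88.0 ± 17.4 CPM (SD, n = 3), a log2FC of 0.75 with a standard error of 0.24 and a 95% interval from 0.20 to 1.30 (adjusted p = 0.0485). This call was near the threshold. It was lost without LC replicate 2 (log2FC 0.59, adjusted p = 0.188), without IP + LC replicate 2 (0.80, adjusted p = 0.129) and without IP + LC replicate 3 (0.62, adjusted p = 0.161).

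Igf1r (ENSMUSG00000005533, chromosome 7 from 67952827 to 68233668) encodes the signaling receptor. It had 8, 110 and 107 UMIs in LC replicates 1, 2 and 3 and 125, 112 and 83 UMIs in the IP + LC tumors. In CPM these were 13.8, 86.2 and 90.7 against 90.6, 65.4 and 60.3. The groups overlapped, and LC replicate 1 was the only tumor below 60 CPM.

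Igf2r (ENSMUSG00000023830, chromosome 17 from 12682406 to 12769664) showed the same low tumor. It had 7, 83 and 86 UMIs in the LC tumors and 70, 89 and 62 UMIs in the IP + LC tumors, or 12.1, 65.0 and 72.9 against 50.8, 51.9 and 45.0 CPM. The exact 95% Poisson interval of LC replicate 1, which covers counting error only, ran from 4.85 to 24.8 CPM for Igf2r and from 5.95 to 27.1 CPM for Igf1r. It did not reach the interval of any other tumor for either gene.

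With all tumors, neither receptor passed the test. The log2FC was 0.11 for Igf1r (95% interval -0.97 to 1.19, adjusted p = 0.890) and -0.10 for Igf2r (95% interval -1.08 to 0.88, adjusted p = 0.886), so a 2-fold increase lay within the interval of Igf1r and a 2-fold decrease within that of Igf2r. The sign of Igf2r also depended on the scaling and was positive, at 0.068, with library size alone. Without LC replicate 1, both values were negative. Igf2r was then lower in the IP + LC group (log2FC -0.47, adjusted p = 0.0317), and Igf1r was at -0.29 (adjusted p = 0.213).

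The longest annotated transcripts of Igf1r and Igf2r measure 11409 and 8887 nucleotides, the longest of the 9 members. On log2(CPM + 4), LC replicate 1 was 2.38 below the mean of the other LC tumors for Igf1r (difference -2.38) and 2.18 below for Igf2r (difference -2.18), against the median of -0.93 for all 660 tested genes over 8000 nucleotides. For Igfbp5, with 6006 nucleotides, the difference was -0.72, and for Igf1, with 7052 nucleotides, it was -0.02, against a median of -0.54 for the 1023 genes of the class just below, up to 8000 nucleotides. The part of transcript length in the values of this tumor was not tested. The antisense RNA gene Airn, which lies across the start of Igf2r on the opposite strand and shares 0 exonic bases with it, had a log2FC of -1.36 (adjusted p = 0.0343).

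**Figure D2:**
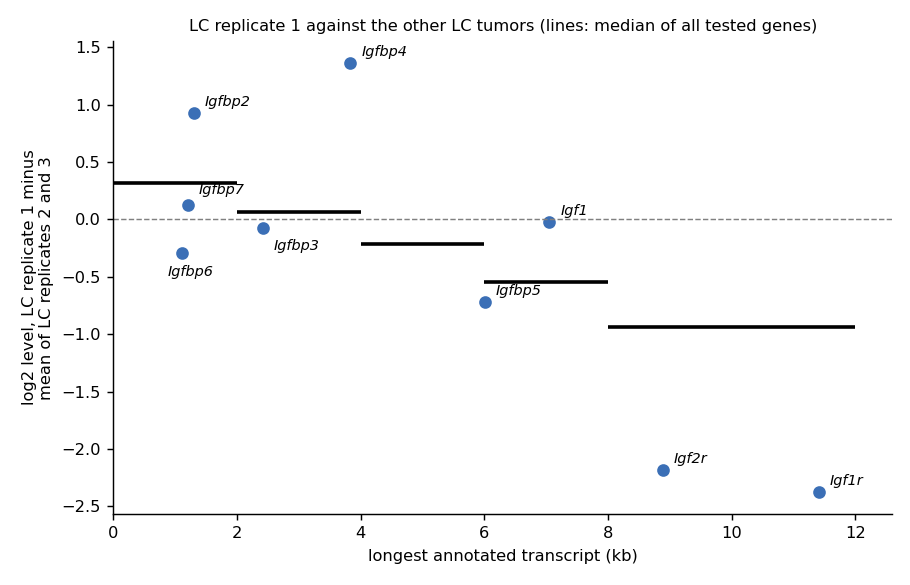
Difference of log2(CPM + 4) between LC replicate 1 and the mean of LC replicates 2 and 3 (vertical axis) against the longest annotated transcript in kb (horizontal axis) for the 9 IGF genes (points), with the median of all tested genes in 5 length classes as black lines. Igf1r and Igf2r lie below the line of the longest class at -0.93, while Igfbp4 at 1.36 and Igfbp2 at 0.93 lie above those of their classes.

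Igfbp6 (ENSMUSG00000023046, chromosome 15 from 102144362 to 102149511), a binding protein that prefers IGF2 over IGF1, had the largest change of the 9 genes. It had 140, 352 and 373 UMIs in the LC tumors, or 241, 276 and 316 CPM. In the IP + LC tumors it had 78, 42 and 58 UMIs, or 56.6, 24.5 and 42.1 CPM. Every IP + LC tumor lay far below every LC tumor, as the lowest LC value was 241 CPM and the highest IP + LC value 56.6 CPM. The log2FC was -2.77 with a standard error of 0.31 (95% interval -3.46 to -2.07, adjusted p = 0.000948), and its p-value ranked 96 among the 11240 tested genes.

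Igfbp3 (ENSMUSG00000020427, chromosome 11 from 7206086 to 7213923) encodes the main carrier of IGFs in blood. It had 66, 171 and 125 UMIs in the LC tumors, or 114, 134 and 106 CPM. In the IP + LC tumors it had 55, 62 and 8 UMIs, or 39.9, 36.2 and 5.81 CPM. The groups did not overlap, and IP + LC replicate 3 was much lower than the other 2 tumors of its group. Its exact 95% Poisson interval, 2.51 to 11.4 CPM, did not reach theirs, of which the lowest bound was 27.7 CPM. The log2FC was -2.10 with a standard error of 0.49 (95% interval -3.21 to -0.99, adjusted p = 0.0142). Without IP + LC replicate 3 it was -1.61 (adjusted p = 0.0124), so the decrease did not rest on that tumor.

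Igfbp7 (ENSMUSG00000036256, chromosome 5 from 77349240 to 77408041) binds IGFs weakly and is known from the walls of blood vessels. It had 501, 942 and 998 UMIs in the LC tumors, or 863, 738 and 846 CPM. In the IP + LC tumors it had 589, 700 and 586 UMIs, or 427, 409 and 426 CPM. The spread within the groups was the smallest of the 9 genes, 8.29% of the mean among LC tumors and 2.44% among IP + LC tumors, against medians of 28.6% and 14.2% over all tested genes. The means were 815 ± 67.6 and 420.4 ± 10.3 CPM (SD, n = 3), a log2FC of -0.96 with a standard error of 0.19 (adjusted p = 0.00713). The last 85 exonic bases of Igfbp7, 7.03% of its exonic sequence, overlap the end of Polr2b on the opposite strand, and whether reads were counted by strand is not given in the sources used here. Polr2b had 29 to 82 UMIs per tumor and a log2FC of 0.24 (adjusted p = 0.443).

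For these 3 genes the IP + LC tumors all lay below the LC tumors, which 21.5% of all tested genes showed. Each kept an adjusted p-value below 0.1 in edgeR when any 1 of the 6 tumors was left out, with log2FC values from -3.04 to -2.47 for Igfbp6, from -2.42 to -1.61 for Igfbp3 and from -1.02 to -0.90 for Igfbp7.

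**Figure D3:**
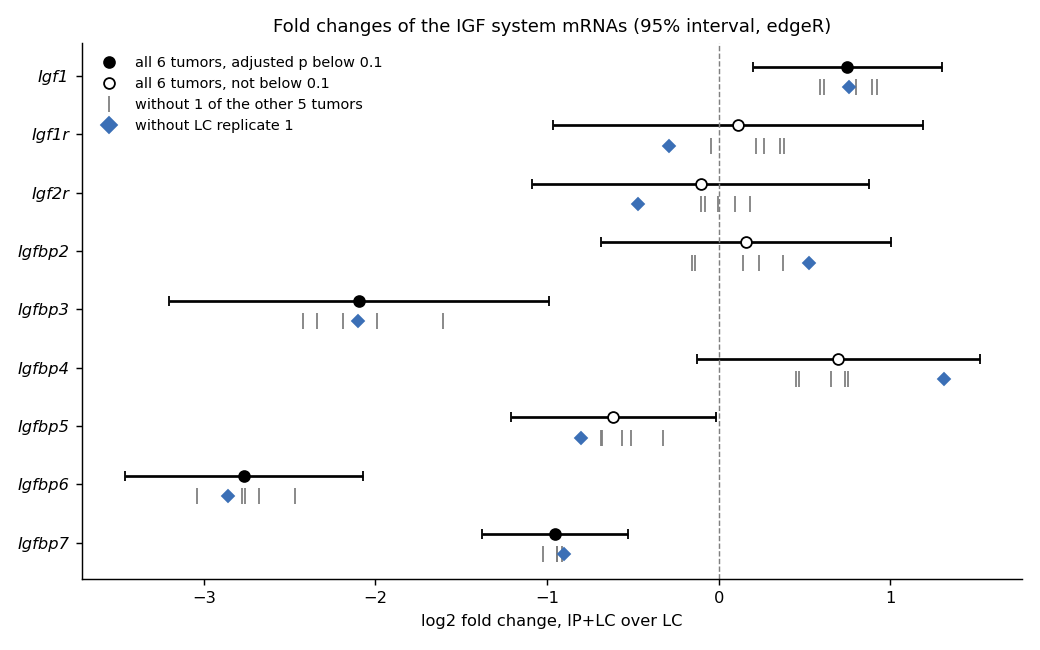
Log2 fold change of the IP + LC over the LC group (horizontal axis) for the 9 IGF genes, with the 95% interval from edgeR, as filled circles where the adjusted p-value was below 0.1 and open circles where it was not. Grey ticks and blue diamonds below each circle give the value without 1 tumor, the diamond without LC replicate 1, which moved Igfbp4 from 0.70 to 1.31 and Igf2r from -0.10 to -0.47.

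Igfbp4 (ENSMUSG00000017493, chromosome 11 from 99041244 to 99054392) encodes a binding protein that holds back IGF action until the protease PAPP-A cleaves it. It had 309, 266 and 236 UMIs in the LC tumors and 673, 934 and 657 UMIs in the IP + LC tumors. In CPM these were 532, 208 and 199.99 against 488, 545 and 477. LC replicate 1 lay among the IP + LC tumors, and the other 2 LC tumors lay far below them. With all tumors the log2FC of 0.70 did not pass the test (standard error 0.37, 95% interval -0.13 to 1.52, adjusted p = 0.189). Without LC replicate 1, Igfbp4 was higher in the IP + LC group, with a log2FC of 1.31 (adjusted p = 2.74e-06). Of its longest transcript, 290 of 3831 nucleotides (7.57%) match transcripts of other genes at 95% identity or more over at least 81 nucleotides. These stretches lie between nucleotides 2691 and 3703, toward the 3′ end from which reads come. A part of its UMIs is therefore less certain, and that part can be larger than this percentage.

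Igfbp5 (ENSMUSG00000026185, chromosome 1 from 72857932 to 72874884), which also binds the extracellular matrix, had 50, 218 and 140 UMIs in the LC tumors and 130, 137 and 102 UMIs in the IP + LC tumors. In CPM these were 86.1, 171 and 119 against 94.3, 80.0 and 74.1. LC replicate 1 lay within the range of the IP + LC tumors and the other 2 above it. The log2FC was -0.61 (95% interval -1.21 to -0.01, adjusted p = 0.118). Igfbp5 was called lower without LC replicate 1 (log2FC -0.80, adjusted p = 0.00171) and with upper quartile scaling of all tumors (log2FC -0.67, adjusted p = 0.0880).

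Igfbp2 (ENSMUSG00000039323, chromosome 1 from 72824503 to 72852474), which can bind integrins at the cell surface, lies 5458 bases from Igfbp5 with the ends of the genes facing each other. It had 67, 55 and 88 UMIs in the LC tumors and 106, 101 and 162 UMIs in the IP + LC tumors. In CPM these were 115, 43.1 and 74.6 against 76.9, 59.0 and 118. The groups overlapped throughout. The log2FC was 0.16 (95% interval -0.69 to 1.00, adjusted p = 0.785), and it was 0.53 without LC replicate 1 (adjusted p = 0.120).

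The binding proteins were also described together. The summed level of Igfbp2 to Igfbp7 was 1951, 1570.0 and 1661 CPM in the LC tumors and 1183, 1153 and 1142 CPM in the IP + LC tumors. Each IP + LC tumor was below each LC tumor, while the make-up of the sum shifted. Igfbp4 made up 27.3%, 13.3% and 12.04% of the binding protein UMIs in the LC tumors and 41.3%, 47.3% and 41.8% in the IP + LC tumors. The widest of these 6 Wilson 95% intervals ran from 24.8% to 29.9% in LC replicate 1, and the lowest bound in the IP + LC group was 38.9%. Igfbp6 made up 12.4%, 17.6% and 19.03% in the LC tumors and 4.78%, 2.13% and 3.69% in the IP + LC tumors. The share of Igfbp7 was 44.2% to 50.9% in the LC tumors and 35.4% to 37.3% in the IP + LC tumors. Igfbp5 kept overlapping shares, with means of 7.48 ± 3.25% and 7.13 ± 0.762% (SD, n = 3). A share depends on all 6 genes. Against LC replicate 1 the CPM of Igfbp4 was at the same level in the IP + LC tumors (532 against 477 to 545 CPM), and its larger share there goes with the lower sum of the 6 genes.

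**Figure D4:**
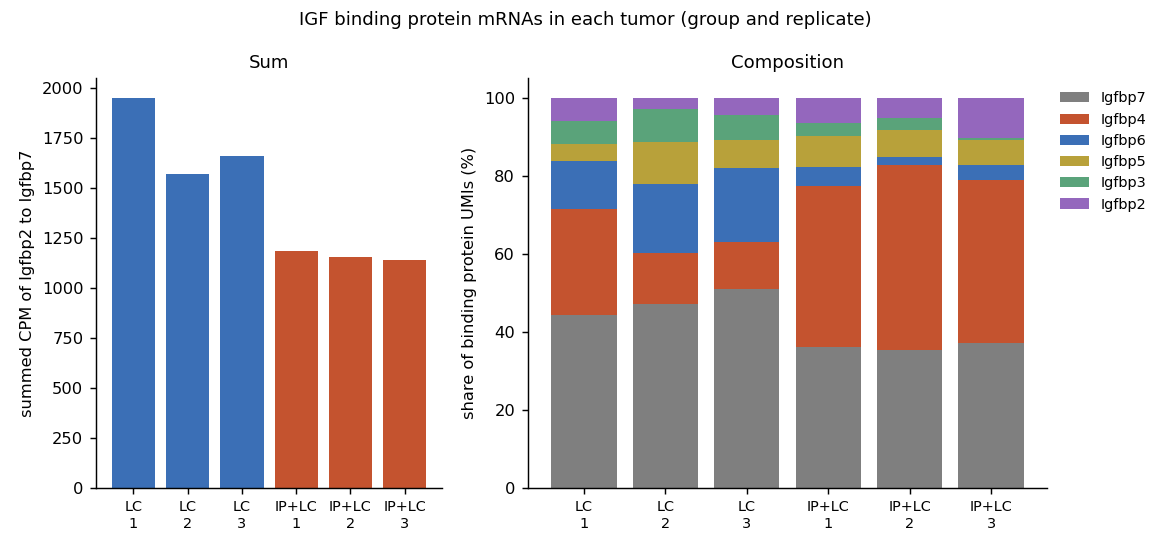
Left, summed CPM of the 6 binding protein genes in each tumor (bars from 0, blue for LC and orange for IP + LC). Right, share of each gene in the binding protein UMIs of each tumor in percent, where the Igfbp4 share was 12.04% to 27.3% in the LC and 41.3% to 47.3% in the IP + LC tumors.

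Markers of the cell types that are known to make IGF binding proteins moved between the groups as well. In bulk tissue, fewer cells of a type cannot be told apart from less RNA per cell. All 8 endothelial markers were lower in the IP + LC group, and their summed level was 1293 to 2131 CPM in the LC tumors and 442 to 542 CPM in the IP + LC tumors. All 6 smooth muscle markers were lower (637 to 1022 against 191 to 262 CPM), 2 of 5 tested pericyte markers were lower (114 to 143 against 56.6 to 75.5 CPM), and all 4 tested mesothelial markers were lower (126 to 258 against 51.9 to 66.7 CPM). The median log2FC was -1.77 for the endothelial, -1.99 for the smooth muscle, -2.20 for the mesothelial and -0.99 for the pericyte markers. The log2FC was -0.96 for Igfbp7, -2.10 for Igfbp3 and -2.77 for Igfbp6. Medians of other marker lists also lay near these values, at -0.94 for epithelial keratin, -2.13 for cardiac muscle and -2.78 for alveolar macrophage markers. The medians therefore do not single out a cell type. All 5 markers of airway epithelium were lower, with a median log2FC of -3.22, farther from 0 than that of Igfbp6. Foxj1, a marker of this list named after its value was seen, fell less than Igfbp6 (log2FC -1.04). The sums of this list were 47031 to 54131 CPM in the LC and 3199.7 to 6984 CPM in the IP + LC tumors. Without LC replicate 1, 3 of the 5 pericyte markers were lower. The endothelial adhesion gene Pecam1 fell from 315 ± 43.8 to 100.004 ± 10.3 CPM (SD, n = 3), as did the smooth muscle gene Myh11 from 108 ± 49.6 to 25.3 ± 5.12 CPM (SD, n = 3). The mesothelial gene Msln fell from 69.1 ± 24.2 to 37.3 ± 4.69 CPM (SD, n = 3). None of Pecam1, Myh11 and Msln was at 0 UMIs in any tumor. The part of the cell types in the decrease of Igfbp3, Igfbp6 and Igfbp7 was not tested.

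The 8 fibroblast markers did not share a direction. Of these, 2 were higher and 4 lower, and their sum was 1899 to 2334 CPM in the LC tumors and 1943 to 1969 CPM in the IP + LC tumors. The 2 that rose with all tumors encode the chains of type I collagen, the main collagen of fibrotic tissue. Without LC replicate 1, 3 were higher and 4 lower. Col3a1, named after its values were seen, was then also higher (log2FC 0.86, adjusted p = 0.000213). Col1a1 went from 141 ± 51.0 to 381 ± 53.5 CPM and Col1a2 from 291 ± 29.2 to 462 ± 55.2 CPM (SD, n = 3). The 4 that fell, named after their values were seen as was Col1a2, were the proteoglycan genes Dcn and Lum, the receptor gene Pdgfra and the transcription factor gene Tcf21. Dcn fell from 762 ± 253 to 177 ± 24.4 CPM (SD, n = 3). Values of log2FC were -2.11 for Dcn, -2.28 for Tcf21, -1.10 for Lum and -1.06 for Pdgfra. Their part in the levels of the binding proteins was not tested.

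The 2 lists of macrophage markers moved in opposite directions. Of 8 general macrophage markers, 4 were higher in the IP + LC group and 0 lower, and their sum was 2316, 857 and 616 CPM in the LC tumors and 2311, 2923 and 2640 CPM in the IP + LC tumors. LC replicate 1 was thus at the level of the IP + LC tumors for the general macrophage markers, as it was for Igfbp4, and without it 7 of the 8 were higher. All 7 markers of alveolar macrophages, the resident macrophages of the air spaces, were lower in the IP + LC tumors (median log2FC -2.78). Their sum was 1471 to 1777 CPM in the LC tumors and 194 to 409 CPM in the IP + LC tumors, and 1 of them, Krt79, was at 0 UMIs in IP + LC replicate 2. Igf1 did not share this order, since LC replicate 1, at 51.7 CPM, lay between the other LC tumors. The macrophage gene Adgre1 was at 62.0, 32.1 and 35.6 CPM in the LC tumors and at 52.2, 80.0 and 76.2 CPM in the IP + LC tumors. The part of either kind of macrophage in the levels of Igfbp4 and Igf1 was not tested.

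Other genes of the IGF pathway were taken from 7 lists with 68 different genes, of which 5 were not analysed here and 18 had too few UMIs. Of the 45 tested, 8 were higher and 11 were lower in the IP + LC group, or 17.8% and 24.4% against 16.8% and 19.6% of all tested genes. Their median log2FC was -0.19. With all tumors these shares are near the background, and the values of single genes are given as such. Without LC replicate 1, 50 pathway genes and 11748 genes in all were tested. Of the pathway genes 12 were then higher (24.0%) and 19 lower (38.0%), against 28.3% higher and 28.7% lower among all genes tested in that fit.

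**Figure D5:**
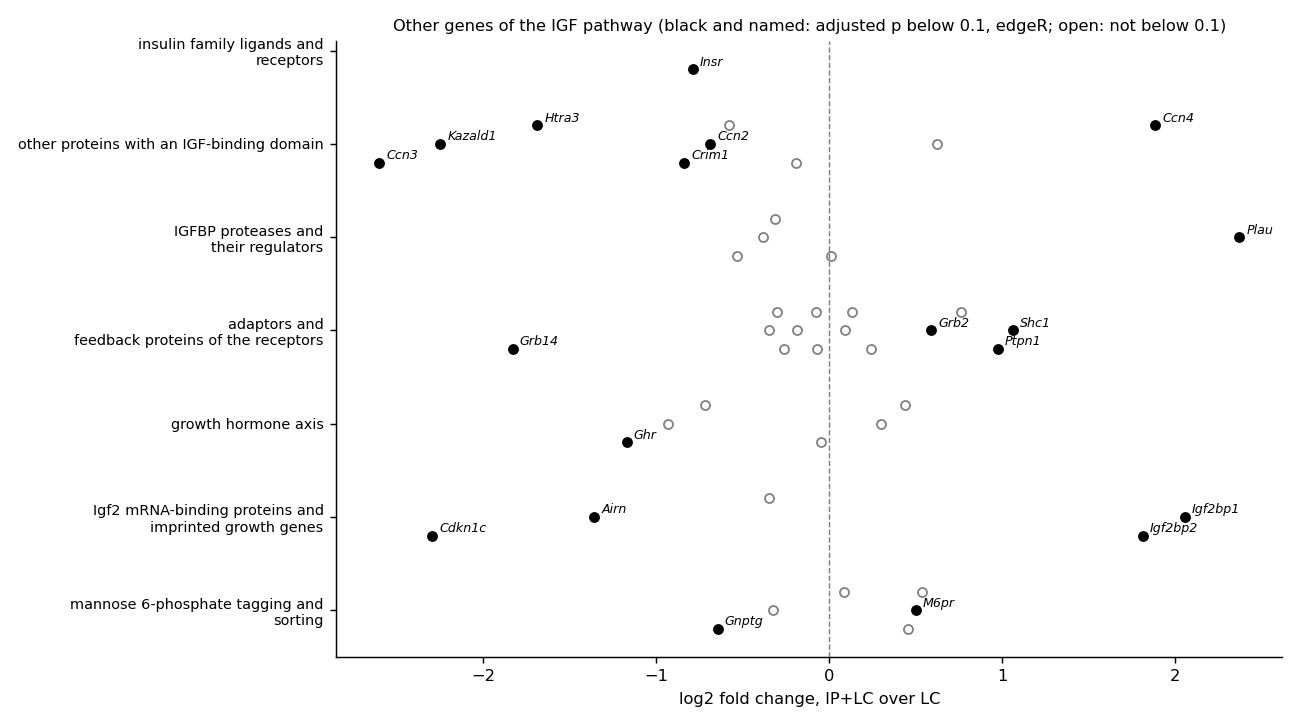
Log2 fold change of the IP + LC over the LC group (horizontal axis) for the tested genes of the 7 lists (rows), each point 1 gene, black and named where the adjusted p-value was below 0.1 and open where it was not. Plau at 2.37 and Igf2bp1 at 2.05 lie farthest to the right and Ccn3 at -2.60 farthest to the left.

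Among other proteins with an IGF-binding domain, 1 of 9 tested genes was higher and 5 were lower, and 2 of 10 were higher and 7 lower when LC replicate 1 was left out. Ccn4, a matricellular protein also known as WISP1, rose from 6.34 ± 1.09 to 23.5 ± 5.52 CPM (SD, n = 3), a log2FC of 1.88 (adjusted p = 0.00498). Its relative Ccn3 fell from 16.5 ± 2.54 to 2.81 ± 1.42 CPM (SD, n = 3), with 8, 24 and 20 UMIs in the LC tumors and 5, 2 and 5 in the IP + LC tumors. The serine protease gene Htra3 had a log2FC of -1.69 (adjusted p = 0.0139). Kazald1 had 3, 41 and 44 UMIs in the LC tumors and 4, 7 and 14 in the IP + LC tumors, so that the groups overlapped through LC replicate 1 although the test called it lower (log2FC -2.25, adjusted p = 0.0260). Its log2FC without LC replicate 1 was -2.60 (adjusted p = 5.07e-05). The remaining 2 were Crim1 and the matricellular gene Ccn2, at -0.84 and -0.69 (adjusted p = 0.0741 and 0.0797). Ccn1, with the most UMIs of this list, was at 160 ± 11.6 and 140.1 ± 2.23 CPM (SD, n = 3) and did not pass the test (adjusted p = 0.469).

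Of the proteases that cut binding proteins and of their regulators, 5 of 11 were tested. Plau, which encodes urokinase, rose from 18.1 ± 5.83 to 94.7 ± 17.98 CPM (SD, n = 3), a log2FC of 2.37 with a standard error of 0.29 (adjusted p = 0.00120). With all tumors it was the only gene of this list that passed. When LC replicate 1 was left out, 7 genes were tested, and Mmp19 was also higher (log2FC 1.58, adjusted p = 0.0409) and Adamts1 lower (log2FC -0.69, adjusted p = 0.00804), both named after their values were seen. The lysosomal protease gene Ctsd was at 904 ± 240.1 and 910.0 ± 90.3 CPM (SD, n = 3, adjusted p = 0.979). Pappa, whose product cleaves IGFBP4, had 2 to 6 UMIs per tumor, and a difference was not detectable at this depth.

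Of the adaptors of the receptors, 3 of 14 tested genes were higher and 1 was lower. When LC replicate 1 was left out, 3 were higher and 4 lower, where Grb10, Pik3ca and Pik3r1, named after their values were seen, joined Grb14 with log2FC values of -0.65, -0.51 and -0.38. Shc1 and Grb2, which link receptors to RAS, had log2FC values of 1.06 (adjusted p = 0.0104) and 0.59 (adjusted p = 0.0442). Ptpn1, a phosphatase that acts on the insulin and IGF1 receptors, rose from 85.3 ± 8.01 to 167 ± 9.95 CPM (SD, n = 3). Grb14, an inhibitor of insulin receptor signaling, fell from 56.1 ± 16.2 to 16.4 ± 6.39 CPM (SD, n = 3, log2FC -1.83, adjusted p = 0.00533). The receptor gene Insr, the only tested gene of the insulin family list, was at 12, 45 and 49 UMIs in the LC tumors and 26, 32 and 29 in the IP + LC tumors, with a log2FC of -0.79 (adjusted p = 0.0604). The value without LC replicate 1 was -0.96 (adjusted p = 0.00259).

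Growth hormone induces Igf1 through its receptor in many tissues. The receptor gene Ghr fell from 83.4 ± 17.0 to 37.5 ± 2.71 CPM (SD, n = 3), a log2FC of -1.17 (adjusted p = 0.00589), and all 3 IP + LC tumors were below all LC tumors. The other 5 genes of this axis did not pass, among them the feedback inhibitor Socs2 with 31, 269 and 249 UMIs in the LC tumors and 117, 129 and 129 in the IP + LC tumors (log2FC -0.93, adjusted p = 0.134). Socs2 was lower once LC replicate 1 was left out (log2FC -1.31, adjusted p = 3.86e-06), and 1 of the 6 genes was then higher and 2 were lower. Ghr and Igf1 thus had log2FC values of opposite sign in the same tumors, -1.17 and 0.75.

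The IGF2 mRNA-binding proteins carry mRNAs, that of Igf2 among them, and are best known from fetal tissue and tumors. Igf2bp2 rose from 19.5 ± 6.26 to 65.5 ± 10.7 CPM (SD, n = 3), a log2FC of 1.81 (adjusted p = 0.00248). Igf2bp1 had 8, 2 and 7 UMIs in the LC tumors and 39, 44 and 27 in the IP + LC tumors, a log2FC of 2.05 (adjusted p = 0.0188). Of the imprinted genes of the same list, the growth inhibitor Cdkn1c was lower (log2FC -2.29, adjusted p = 0.00920), with 12, 77 and 77 UMIs in the LC and 8, 13 and 25 in the IP + LC tumors. In this list 2 of 5 tested genes were higher and 2 lower with all tumors, and 2 of 7 higher and 4 lower when LC replicate 1 was left out.

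IGF2R shares the sorting of lysosomal enzymes with a smaller mannose 6-phosphate receptor, M6pr, which rose from 208 ± 28.3 to 294 ± 9.41 CPM (SD, n = 3, log2FC 0.50, adjusted p = 0.0876). Gnptg, a subunit of the enzyme that attaches the mannose 6-phosphate tag, fell from 43.5 ± 2.66 to 27.6 ± 1.90 CPM (SD, n = 3, adjusted p = 0.0381). The other 4 tested genes of this list did not pass, and 1 of these, making 2 of 6 higher, passed when LC replicate 1 was left out.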

How the data were processed

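Tumor RNA was sequenced by bulk RNA barcoding, with UMIs of 10 nucleotides carried by the oligo-dT primer, so reads come from 3′ ends. The deposited values are counts of different UMIs per gene in 1 table per tumor, which the authors made without normalization. They used UMI-tools 1.1.1, Trim Galore 0.6.7, HISAT2 2.2.1 on GRCm38 and featureCounts 2.0.1. Whether strand was used, and which annotation release, is not given in the sources used here. The test was run with edgeR 4.0.16 (R 4.3.3). The filter was filterByExpr (minimum count 10, minimum total 15) and the scaling TMM, whose factors spanned 0.905 to 1.07. The quasi-likelihood test compared the groups without a block, with calls at an adjusted p-value below 0.1, the limit of the study. Standard errors were the log2 fold change divided by the root of F. CPM values are after TMM scaling. A read at the 3′ end counts a transcript once whatever its length, and levels were compared between tumors and not between genes.

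Coordinates, transcripts and overlaps came from GENCODE M21 on GRCm38, promoters from RefSeq (10 windows for the 9 members), and near-identical transcripts from blastn 2.17.0+. The members and lists were chosen with earlier results of these data known. All members are named, and of each pathway list the called genes with the smallest p-values and the gene with the most UMIs. The promoter motifs, binding protein shares, ratios and transcript lengths were chosen after seeing the data. The labels number the tumors 1 to 3 in each group and name no litter or batch, so p-values measure the spread between these tumors. Poisson and Wilson intervals cover counting error only. The alternatives were 3 other scalings, 2 other filters, DESeq2 1.42.0, limma 3.58.1 voom, robust edgeR, a replicate block, a limit of 0.05, counts thinned to the smallest library and each tumor left out. The fit without LC replicate 1 was extended to the pathway genes and marker lists after seeing the data. Simulated counts with known changes were used to check the script.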

Additional observations from a re-analysis of the deposited data

How the results depend on the processing

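Over all alternatives, Igfbp6 and Igfbp7 in 17 of 17 and Igfbp3 in 16 of 16 settings kept their direction and an adjusted p-value below the limit. Leaving out 1 tumor gave 0 to 2 members called higher, 3 to 5 called lower, 6 to 12 other pathway genes called higher and 5 to 19 called lower, and 897 to 3324 of all tested genes called higher and 1368 to 3367 called lower. Each upper end was the value without LC replicate 1. The lowest values for members called higher came without LC replicate 2, IP + LC replicate 2 or IP + LC replicate 3, the lowest for pathway genes called lower and for all tested genes without IP + LC replicate 2, while 6 pathway genes were called lower without LC replicate 2 and 7 when IP + LC replicate 1 was left out. The number of members called higher was 2 with no filter on low counts and 2 with limma voom, where Igfbp4 joined Igf1, and 4 members were called lower with upper quartile scaling, where Igfbp5 joined the other 3 (log2 fold change -0.67, adjusted p = 0.0880). The number of other pathway genes called lower was 7 with library size alone, 6 with at least 10 UMIs in every library and 3 after thinning, and the number called higher after thinning was 4, with 707 higher and 954 lower among all tested genes. Library size alone also moved the median log2 fold change of all tested genes from 0.02 to 0.18 and the calls to 2520 higher and 1800 lower, against 1885 and 2203. Thinning lowers the number of UMIs, and leaving out a tumor lowers the number of samples, by construction. The cause of the changed counts was not tested for any setting.

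Signs turned only for members that had not passed the test. Igf2r had a log2 fold change of 0.068 with library size alone, 0.014 without a filter, 0.11 with limma voom, 0.080 with the replicate block, 0.22 after thinning, 0.09 without LC replicate 2 and 0.18 without LC replicate 3. Igf1r had -0.29 when LC replicate 1 was left out and -0.04 without IP + LC replicate 1, and Igfbp2 had -0.16 without LC replicate 2 and -0.14 without IP + LC replicate 3. Over the values without 1 tumor, the range was -0.47 to 0.18 for Igf2r, -0.29 to 0.38 for Igf1r and -0.16 to 0.53 for Igfbp2. Igf1r, Igf2r and Igfbp3 could not be tested with at least 10 UMIs in every library. Same-numbered tumors had correlations of their deviations from the group means of 0.03, -0.12 and 0.11. LC replicate 1 correlated best with IP + LC replicate 2 (0.13). With 3 tumors in each group these values cannot show whether the numbers pair the tumors, and the labels name no pairing. With the replicate block, 1 member was higher and 3 were lower, 7 other pathway genes were higher and 9 lower, and 1599 of all tested genes were higher and 1811 lower. The limit that a count of 0 allows, 3 UMIs, corresponded to 5.17 CPM in LC replicate 1 and 1.75 to 2.54 CPM in the other tumors.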

Other observations

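Ratios of UMIs within a tumor do not depend on how the libraries are scaled, and 2 of them, chosen after their values were seen, are given as a description. The ratio of Igfbp4 to Igfbp6 was 2.21, 0.756 and 0.633 in LC replicates 1, 2 and 3 and 8.63, 22.2 and 11.3 in the IP + LC tumors. LC replicate 1, which was at the level of the IP + LC tumors for Igfbp4 alone, was below each of them in this ratio. Igfbp6, the denominator, had the largest change of the members, so this order does not describe Igfbp4 by itself. The ratio of Igf1 to Igfbp3 was 0.455, 0.310 and 0.6 in the LC tumors and 1.82, 2.34 and 18.4 in the IP + LC tumors, where the last value rests on the 8 UMIs of Igfbp3 in replicate 3.

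Igfbp4 lies between Tns4, 11286 bases away, and Top2a, a gene of dividing cells, 17055 bases away. Top2a had 59, 43 and 43 UMIs in the LC tumors and 625, 725 and 552 in the IP + LC tumors. The summed level of the 5 proliferation markers was 384, 91.7 and 98.3 CPM in the LC tumors and 754 to 874 CPM in the IP + LC tumors, so LC replicate 1 was above the other LC tumors in this list too.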
